A study of Mus musculus with 20 samples.

Results

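The genes described here are those of ubiquinone (coenzyme Q) synthesis in the mouse heart. They were chosen by name, as a list of 10 genes: Pdss1, Pdss2, Coq2, Coq3, Coq4, Coq5, Coq6, Coq7, Coq9 and Coq10a. Of these, 9 had a probe set named for them alone, out of 18193 genes so named, and all 9 passed the filter on low values that left 9275 genes for testing. Pdss1 was not analysed here. The study asked whether mitochondrial gene expression declines with age, and total RNA of the cardiac ventricle was hybridised to Affymetrix MOE430 2.0 arrays, on which a set of short probes near the 3′ end reads a transcript. Old males of the inbred strain C57BL/6J, aged 25 to 28 months, gave 10 arrays, and young males of the same strain, aged 4 to 6 months, gave the other 10. No mouse is labelled as treated or as carrying an allele. All values are log2 GCRMA signals, differences are old minus young on that scale, and means carry the SD over the 10 arrays of their group. A gene is said to fall or rise where limma gave an adjusted p under 0.05.

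Ubiquinone is a lipid of the inner mitochondrial membrane that takes electrons from complex I, complex II and several other dehydrogenases and hands them to complex III, and it also acts as an antioxidant. Its polyisoprenoid tail comes from the mevalonate pathway and its ring from tyrosine. The tail is joined to the ring inside mitochondria, and the ring is then hydroxylated, decarboxylated and methylated by enzymes held together in a matrix-side complex. The heart, which depends on respiration, is rich in this lipid, and inherited defects of these genes in humans cause ubiquinone deficiency.

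Markers of atrial muscle and macrophages were higher in old arrays, and none of the heart muscle markers listed for the ventricle passed the test. All 9 of these were tested, with 0 calls in limma (1 lower at an unadjusted p under 0.05) and a median difference of −0.05. Several of them, such as Myh6 and Tnnt2, are also genes of atrial muscle, and the share of ventricular muscle was not tested. Of the 9 listed, 8 were below 0: Irx4, a ventricular transcription factor, stood at −0.58 (adjusted p = 0.0845) and the others between −0.13 and 0.02. All 4 tested atrial markers of 7 listed were higher in old, and the log2 of the 7 markers' summed signal ran from 10.74 to 16.59 in old arrays and from 10.04 to 12.4 in young arrays. The atrial myosin gene Myl7 was above 10 in 7 old arrays and between 2.36 and 8.27 in old replicates 1, 2 and 7, and it was at most 2.44 in the young arrays, where Sln and Dkk3 were also below 4. Macrophage markers were higher in old for 7 of 8 genes (summed log2 signal 11.39 to 12.27 in old, 10.65 to 11.35 in young), fibroblast markers for 2 of 6 (12.63 to 13.7 and 12.44 to 13.07), smooth muscle markers for 1 of 3 (9.51 to 13.53 and 9.02 to 11.31) and endothelial markers for 0 of 5 (10.0 to 11.05 and 10.01 to 10.83; 0 higher and 1 lower at an unadjusted p under 0.05). Of 5 adipocyte markers listed, 3 were matched and 0 tested, with summed log2 signals of 3.91 to 12.09 in old and 3.87 to 3.98 in young. By their deviations from the group means the arrays also formed 5 sets, of 2 old and 2 young arrays in each, which the labels do not name. The part of the macrophage, fibroblast, smooth muscle and adipocyte transcripts in the results below was not tested; values with the atrial transcripts and the array sets taken into account are given further on. The number of arrays limits the precision.

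Most coenzyme Q synthesis genes were lower in old ventricles. Of the 9 genes, 6 fell in the limma test (Pdss2, Coq2, Coq5, Coq6, Coq9 and Coq10a) and 0 rose (0 also at an unadjusted p under 0.05, at which 8 were lower), where 7.49% of all 9275 genes fell and 11.2% rose. With the atrial transcripts as a covariate 2 of 9 fell, where 0.927% of all genes did. When 7 old arrays rich in these transcripts were left out, 0 of 9 fell in limma (6 lower at an unadjusted p under 0.05). In that fit 0.679% of all genes fell. All 9 estimates from the full set were below 0, between −0.61 for Pdss2 and −0.21 for Coq7, with a median of −0.49 against 0.01 over all genes tested. Rises were 59.9% of all calls on the deposited values, against 43.2% after quantile normalization, 68.6% after median centring and 41.1% after centring on the probe sets that pass; the direction of the 9 estimates was the same under all 4 scalings. Averaged over the 9 genes, the old arrays lay between −1.05 and −0.11 from the young mean, and the young arrays between −0.24 and 0.24. Every old array was thus below the young mean, and old replicate 10 was within the young range. In each of the 5 array sets all 9 genes were lower in old, a pattern met by 18.6% of all genes tested. Because the sets were drawn from the deviations of these same values, they are not independent repeats of the comparison. In bulk tissue, fewer cells of a type and less RNA per cell cannot be told apart.

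**Figure D1:**
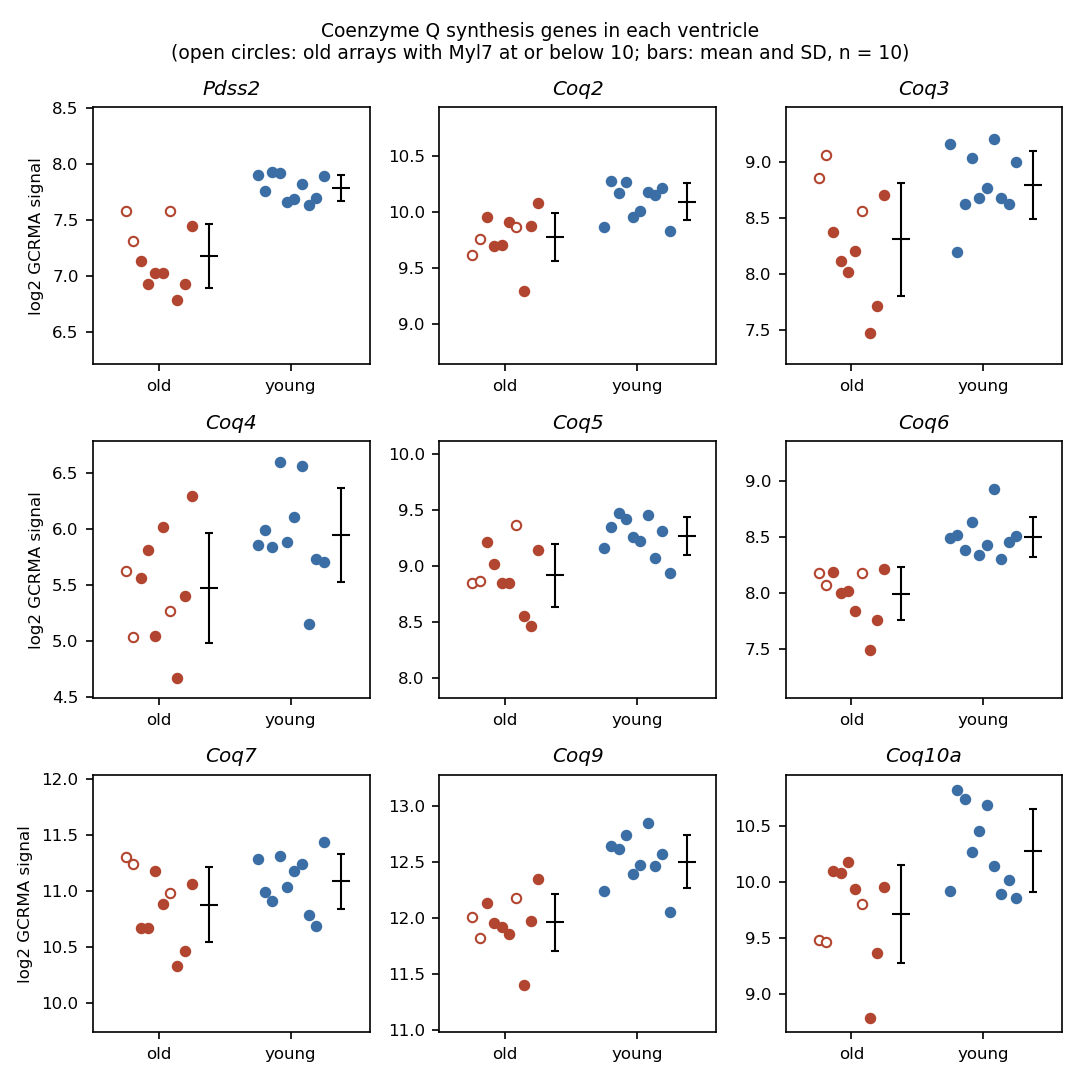
Log2 GCRMA signal of the 9 coenzyme Q synthesis genes in each array, old at the left and young at the right of each panel. Points are arrays, open circles are the 3 old arrays with Myl7 at or below 10, and bars give the mean and SD of 10 arrays; all panels span the same number of log2 units. The old and young points of Pdss2 and Coq6 do not overlap, where 0.42% of all genes tested were lower in every old array than in every young one.

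The promoters of Coq9 and Coq7 are shown because their proteins work as partners and because Coq9 fell while Coq7 did not pass (RefSeq, GRCm38.p6). Each is the 250 bases before the gene's annotated start, 5′ to 3′ along the gene, with motif matches in capitals. They lie at chr8:94838163-94838412 on the plus strand for Coq9 and at chr7:118533357-118533606 on the minus strand for Coq7.
Coq9: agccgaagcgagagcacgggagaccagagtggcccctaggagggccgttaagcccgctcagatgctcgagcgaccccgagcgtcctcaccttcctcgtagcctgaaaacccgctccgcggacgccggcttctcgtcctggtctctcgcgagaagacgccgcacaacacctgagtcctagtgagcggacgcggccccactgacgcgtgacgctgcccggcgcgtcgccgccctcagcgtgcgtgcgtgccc
Coq7: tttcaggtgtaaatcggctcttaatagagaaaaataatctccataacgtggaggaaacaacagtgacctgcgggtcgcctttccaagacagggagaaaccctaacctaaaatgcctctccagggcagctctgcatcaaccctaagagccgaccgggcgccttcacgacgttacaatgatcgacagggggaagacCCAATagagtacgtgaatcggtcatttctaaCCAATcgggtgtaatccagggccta
Coq7 held 2 CCAAT boxes, at 21 to 25 and 52 to 56 bases before its start, and Coq9 held none of the motifs searched. Windows were found for 9 of the 10 listed genes (11 windows, Pdss1 included and Coq5 not). Searched on both strands were the motif of the nuclear respiratory factor NRF1 (GCGCANGCG), which 5.16% of all 32851 windows of this length hold, GABP (CCGGAAGT, 2.88%), the oestrogen-related receptors (TCAAGGTCA, 0.387%), YY1 (AAGATGGCG, 0.606%), SP1 (GGGGCGGGG, 10.4%), the CCAAT box (CCAAT, 33.8%), an E box (CACGTG, 6.02%) and a TATA box (TATAAA, 12.4%). Among the other genes, Coq6 held 3 CCAAT boxes and Coq4 held 1 E box, and the letters of the other motifs were in none of the 11 windows. The window of Coq9 had 34 CG dinucleotides and that of Coq7 had 13, where the median of all windows was 6. The difference in age change between Coq9 and Coq7 was not tested, nor was any part of the promoters in it.

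Pdss2 encodes a subunit of the enzyme that builds the polyisoprenoid tail. Its log2 value ran from 6.79 through a median of 7.08 to 7.58 in old arrays, and from 7.63 through 7.79 to 7.93 in young arrays. The lowest young array exceeded all 10 old ones, which 0.42% of the 9275 genes showed. The mean was 7.18 ± 0.28 in old arrays, against 7.79 ± 0.12 in young arrays, a difference of −0.61 ± 0.10 (SE; limma adjusted p = 0.000233), or 34.6% lower on the linear scale. Within the array sets the difference lay between −0.81 and −0.45. The old arrays were spread more widely than the young ones. Of the 3 old arrays with Myl7 at or below 10, replicates 1 and 7 were the highest old arrays at 7.58 and replicate 2 was at 7.31. The array with the highest Myl7 (14.55), old replicate 10, was above replicate 2, at 7.45. The gene spans 43218248 to 43464882 on chromosome 10; positions of genes here and below are those of GRCm38.p6.

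Coq2 (chromosome 5, 100654723 to 100674288) encodes the transferase that joins the tail to the ring. It ran from 9.3 through 9.81 to 10.08 in old arrays and from 9.83 through 10.16 to 10.28 in young arrays. The ranges overlapped, with 5 old arrays below all young ones and all 10 below the young median. The mean was 9.78 ± 0.22 in old arrays, against 10.09 ± 0.17 in young arrays, a difference of −0.32 ± 0.09 (SE; limma adjusted p = 0.0221). The difference in the array sets lay between −0.60 and −0.16.

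Among the enzymes that modify the ring, Coq6 and Coq5 fell. Coq6 (chromosome 12, 84361756 to 84373796) is a flavin-dependent hydroxylase. It ran from 7.49 through 8.05 to 8.22 in old arrays and from 8.31 through 8.47 to 8.93 in young arrays. Again the lowest young array exceeded all 10 old ones. Pdss2 and Coq6 were the 2 of 9 genes with no overlap, where 0.42% of all 9275 genes were lower in this way. Coq6 averaged 8.0 ± 0.23 in old arrays, against 8.5 ± 0.18 in young arrays, a difference of −0.51 ± 0.10 (SE; limma adjusted p = 0.00113), with −0.80 to −0.36 in the array sets. Coq5, the C-methyltransferase of the ring (chromosome 5, 115279666 to 115296974), ran from 8.46 through 8.85 to 9.36 in old arrays and from 8.94 through 9.28 to 9.47 in young arrays, so the groups overlapped. Its difference was −0.35 ± 0.11 (SE; limma adjusted p = 0.0254), and 6 old arrays were below all young ones. A further probe set of Coq5, whose name marks probes shared with other transcripts, stood at −0.42 (limma adjusted p = 0.0979 over 15304 probe sets) and did not pass.

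Coq3 and Coq7 did not pass the test. Coq3 (chromosome 4, 21879646 to 21912163) is the O-methyltransferase of the ring. It ran from 7.48 through 8.3 to 9.07 in old arrays and from 8.2 through 8.73 to 9.21 in young arrays, at −0.49 ± 0.18 (SE; limma adjusted p = 0.0568; 95% confidence interval −0.85 to −0.12). Old replicate 8 was the lowest of all arrays at 7.48 and old replicate 2 the highest old one at 9.07, above 8 of the 10 young arrays. A further Coq3 probe set was at −0.40 (limma adjusted p = 0.0509 over probe sets). Coq7, which hydroxylates demethoxyubiquinone near the end of the pathway (chromosome 7, 118509659 to 118533356), ran from 10.33 through 10.93 to 11.3 in old arrays and from 10.69 through 11.1 to 11.44 in young arrays. Its difference of −0.21 ± 0.13 (SE; limma adjusted p = 0.284) had a 95% confidence interval of −0.47 to 0.06, and 7 old arrays were below the young median.

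Of the proteins that hold or assist the complex, Coq9 fell and Coq4 did not pass. Coq9 (chromosome 8, 94838413 to 94854895) encodes a lipid-binding protein that partners Coq7. It ran from 11.4 through 11.96 to 12.35 in old arrays and from 12.05 through 12.52 to 12.85 in young arrays, and 7 old arrays lay below all young ones. The mean was 11.96 ± 0.26 in old arrays, against 12.5 ± 0.24 in young arrays, a difference of −0.54 ± 0.11 (SE; limma adjusted p = 0.0017), or 31.4% lower. Coq4, a component needed for the complex to be stable (chromosome 2, 29787493 to 29797935), had low signals, from 4.67 through 5.48 to 6.29 in old arrays and from 5.15 through 5.87 to 6.6 in young arrays. It was at −0.47 ± 0.19 (SE; limma adjusted p = 0.0899), with 3 old arrays below all young ones. Coq10a (chromosome 10, 128363096 to 128370056) encodes a lipid-binding protein whose yeast relative is needed for ubiquinone to function in respiration and not for the ring chemistry itself. It ran from 8.79 through 9.88 to 10.18 in old arrays and from 9.86 through 10.21 to 10.83 in young arrays. It averaged 9.72 ± 0.43 in old arrays, against 10.29 ± 0.37 in young arrays, a difference of −0.57 ± 0.17 (SE; limma adjusted p = 0.0245). Differences between members in the size of the change were not tested.

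The 9 genes had 17 probe sets between them, of which 11 passed the filter. All 11 stood below 0, and 6 of them fell in the test over probe sets, where 5.91% of 15304 probe sets fell. The 6 others, for Coq9, Coq10a and Pdss2, stayed at or below 3.8 on every array, in the range of undetected transcripts, and say nothing of a change. Each called gene except Coq5 thus rests on 1 passing probe set.

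**Figure D2:**
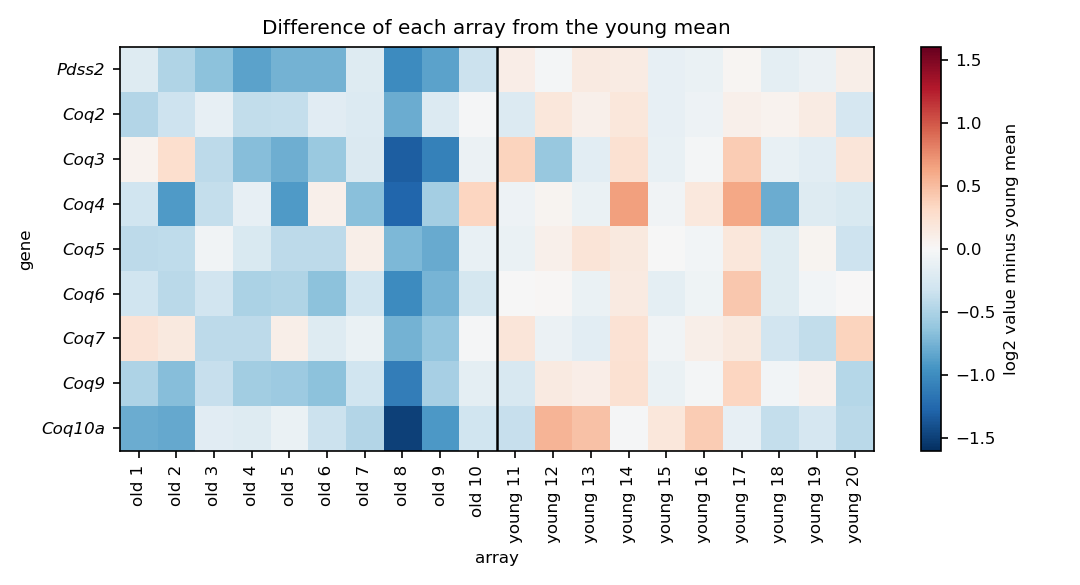
Difference of each array from the young mean (log2) for the 9 genes, old arrays at the left of the line and young arrays at the right, blue for lower and red for higher. Old replicate 8 is the lowest of all 20 arrays for 8 of the 9 genes, and old replicate 10 stays closest to the young arrays.

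The genes varied together within the age groups, though not evenly. Over the 20 arrays, deviations from the group means had a Pearson r above 0 for 34 of 36 pairs, with a median of 0.51. The arrays share tissue, preparation and scaling, so these values are descriptions. Coq2 and Coq9 were the most alike (0.85). Coq3 and Coq7 (0.77) and Coq3 and Pdss2 (0.77) were also close, while Coq3 with Coq10a (−0.01) and Coq2 with Coq7 (−0.02) were not. Coq6 followed the mean of the others most closely (0.86) and Coq10a least (0.47). Old replicate 8 lay at −1.05 on average from the young mean and was the lowest of all 20 arrays for 8 of the 9 genes. The exception was Coq5, which was lowest in old replicate 9, the array with the next lowest average (−0.70). Without old replicate 8, the number of genes that fell was still 6 of 9, where 6.19% of all genes fell.

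Outside the list, the genes whose deviations were most like the mean of the 9, over the same 20 arrays, were Thap4 (likeness 0.918), Bola3 (0.917), a mitochondrial iron-sulfur assembly factor, Fars2 (0.908), the mitochondrial phenylalanyl-tRNA synthetase, Pxmp2 (0.906), a peroxisomal membrane protein, and Endog (0.905), a mitochondrial nuclease. Likeness is Pearson's r between a gene's deviation from its group mean and the average of the members' deviations, each divided by its SD. By age, Thap4 was at −0.59, Fars2 at −0.45, Pxmp2 at −0.50 and Bola3 at −0.37, all lower in the limma test (adjusted p of 0.00166 to 0.0317), and Endog was at −0.31 (adjusted p = 0.1).

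Counts of called genes were lower once the atrial transcripts were handled. An atrial index was formed for each array by scaling the linear signals of Myl7 and of Sln to their highest array and averaging them. With it as a covariate, 2 of 9 genes fell (Pdss2 and Coq9) where 0.927% of all genes did. The SE of the age difference was larger in this fit, 0.12 against 0.10 for Pdss2 and 0.15 against 0.11 for Coq9. When the 7 old arrays rich in Myl7 were left out, 0 of 9 passed in limma (3 old against 10 young; 0.679% of all genes fell), and 6 were lower at an unadjusted p under 0.05. The estimates of 4 genes were about as large in these 3 old arrays as in all 10. Coq10a was at −0.69 ± 0.21 (SE; adjusted p = 0.104), Coq4 at −0.64 ± 0.24 (0.191), Coq9 at −0.50 ± 0.15 (0.101) and Coq2 at −0.35 ± 0.12 (0.157).

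Estimates nearer 0 were found for the others. Pdss2 was at −0.30 ± 0.11 (SE; adjusted p = 0.164), Coq6 at −0.36 ± 0.12 (0.15) and Coq5 at −0.24 ± 0.14 (0.398), while Coq3 at 0.03 ± 0.19 (0.947) and Coq7 at 0.09 ± 0.15 (0.817) were on the other side of 0. The coefficient of the index itself passed for none of the 9 (0 of 9; adjusted p of 0.455 to 0.997), and for 72 of all 9275 genes. With the array sets as a block, 8 of 9 genes fell, Coq7 being the exception (adjusted p = 0.0883), and 16.7% of all genes fell. The sets were drawn from the deviations of these same values, so p in fits with the sets may be too small. With index and sets together, 1 of 9 fell, Pdss2 (−0.44 ± 0.12, SE; adjusted p = 0.0413), and 1.89% of all genes.

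Other settings moved the count less. It was 7 of 9 after quantile normalization (11.5% of all genes fell), 6 after median centring (5.64%), 7 after centring on the probe sets that pass (12.0%), 6 without the filter (16.7%), 6 of 8 with the filter at 6 (8.85%, Coq4 dropping out), 7 when passing probe sets were averaged per gene (7.17%) and 6 with an intensity trend and robust prior (7.67%).

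**Figure D3:**
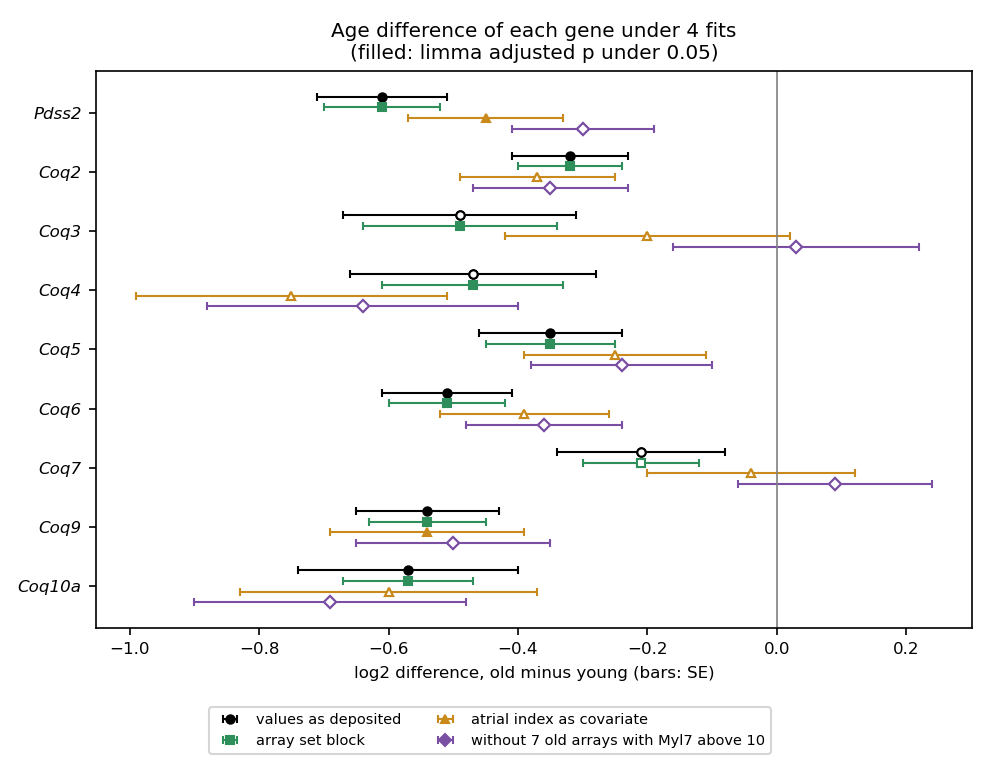
Log2 difference, old minus young, of each gene under 4 fits, with its SE; filled symbols passed an adjusted p under 0.05. Coq3 and Coq7 lie at 0.03 and 0.09 without the 7 old arrays rich in Myl7, while Coq10a, Coq4, Coq9 and Coq2 stay between −0.69 and −0.35.

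Of 53 genes around the pathway, in 6 lists, 48 were matched and 41 tested. Of the 41, 7 fell and 3 rose, where 7.49% of all genes fell and 11.2% rose, and 33 were below 0, with a median difference of −0.15. Without the 7 old arrays rich in Myl7, 1 of the 41 passed (Dhodh, −0.62, adjusted p = 0.0267), and 12 changed sign. Of regulators and partners of the complex, 0 of 6 passed in limma (1 lower at an unadjusted p under 0.05). That one was Coq8a, an atypical kinase-like protein of the complex, at 10.58 ± 0.39 in old arrays, against 11.06 ± 0.41 in young arrays (−0.48, adjusted p = 0.0502). It passed with the array sets as a block (−0.48, adjusted p = 0.00204) and when passing probe sets were averaged (−0.54, adjusted p = 0.00509), and was at −0.44 (adjusted p = 0.372) without the 7 old arrays. Its relative Coq8b did not pass the filter, with at most 4.34 in old arrays and 4.05 in young arrays. Coq10b, the paralog of Coq10a, was at −0.04 ± 0.14 (SE; adjusted p = 0.893), with 8.94 ± 0.37 in old and 8.98 ± 0.30 in young. The difference between the paralogs was not tested.

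Of 9 tested genes of the mevalonate route that supplies the tail, its sterol branch and its regulators, 1 fell and 2 rose. These numbers were close to the shares of all genes (7.49% and 11.2%). Idi1, the isopentenyl diphosphate isomerase, was 6.01 ± 0.35 in old arrays, against 5.51 ± 0.34 in young arrays (0.50, adjusted p = 0.0207). Srebf2, the transcription factor of sterol synthesis, rose by 0.42 (adjusted p = 0.0478), and stood at 0.30 (adjusted p = 0.159) after quantile normalization. Fdft1, squalene synthase, which draws the shared precursor into sterols, fell by 0.52 (adjusted p = 0.0367). Without the 7 old arrays rich in Myl7 all 3 were near 0, Idi1 at 0.13 (adjusted p = 0.772), Srebf2 at 0.06 (0.872) and Fdft1 at 0.02 (0.977). Of the 2 tested genes that lead to the ring's precursor, Got1 and Got2, 0 passed in limma (1 lower at an unadjusted p under 0.05).

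Of 11 tested genes for enzymes that reduce ubiquinone in mitochondria and the electron carriers that feed them, 4 fell and 0 rose. At an unadjusted p under 0.05 also 0 rose. Over all genes tested, 7.49% fell and 11.2% rose. The median of the 11 was −0.20, against 0.01 over all genes. Of the 11, 10 were below 0, while Gpd2, described further on, was at 0.56 (adjusted p = 0.181). Dhodh, the dehydrogenase of pyrimidine synthesis, was 5.79 ± 0.33 in old arrays, against 6.32 ± 0.22 in young arrays (−0.53, adjusted p = 0.005), with 8 old arrays below all young ones. Prodh, proline dehydrogenase, was at −0.40 (adjusted p = 0.0426), Etfdh, which passes on electrons from fatty acid oxidation, at −0.27 (adjusted p = 0.0151) and the complex II subunit gene Sdha at −0.25 (adjusted p = 0.0466). When passing probe sets were averaged, Sdha was at −0.20 and did not pass (limma adjusted p = 0.19). Without the 7 old arrays, Prodh was at −0.37 (adjusted p = 0.318), Etfdh at −0.15 (0.498) and Sdha at −0.14 (0.581).

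Complex III, which oxidises the reduced lipid, had a median of −0.19, against 0.01 over all genes tested. Of its 9 genes 2 were lower, where 7.49% of all genes were: Uqcrc1 (−0.42) and Cyc1 (−0.22). Without the 7 old arrays these stood at −0.39 (adjusted p = 0.165) and −0.19 (0.353). Among 4 other quinone reductases 1 rose, where 11.2% of all genes did. This was Cyb5r3, a membrane-bound reductase, which rose by 0.50 (adjusted p = 0.0122) to 9.66 ± 0.32 in old arrays, against 9.16 ± 0.29 in young arrays. It was at 0.09 (adjusted p = 0.844) without the 7 old arrays, at 0.22 (0.468) with the atrial index and at 0.43 (0.0237) with index and sets. The other 3 did not pass.

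When each array was left out in turn, the 6 genes of the synthesis list that fell did so in all 20 fits. Of all genes, 5.8% to 8.38% fell in these fits. Coq3 passed without old replicate 1, 2 or 10 or young replicate 12, and Coq4 without old replicate 10 or young replicate 18. Among the genes around the pathway 4 calls were marginal, with differences that kept their direction in all 20 fits: Sdha from −0.28 to −0.21, Srebf2 from 0.32 to 0.47, Prodh from −0.47 to −0.34 and Fdft1 from −0.63 to −0.46. Sdha passed only without old replicate 3, 6 or 7 or young replicate 11, 14 or 17, and Srebf2 only without old replicate 1, 2, 7, 8 or 10 or young replicate 12. Prodh was lost without old replicate 3, 4, 6, 7 or 8 or young replicate 12, 14, 16 or 17, and Fdft1 without old replicates 3 to 6, 8 or 9 or young replicate 11, 14, 17 or 20.

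**Figure D4:**
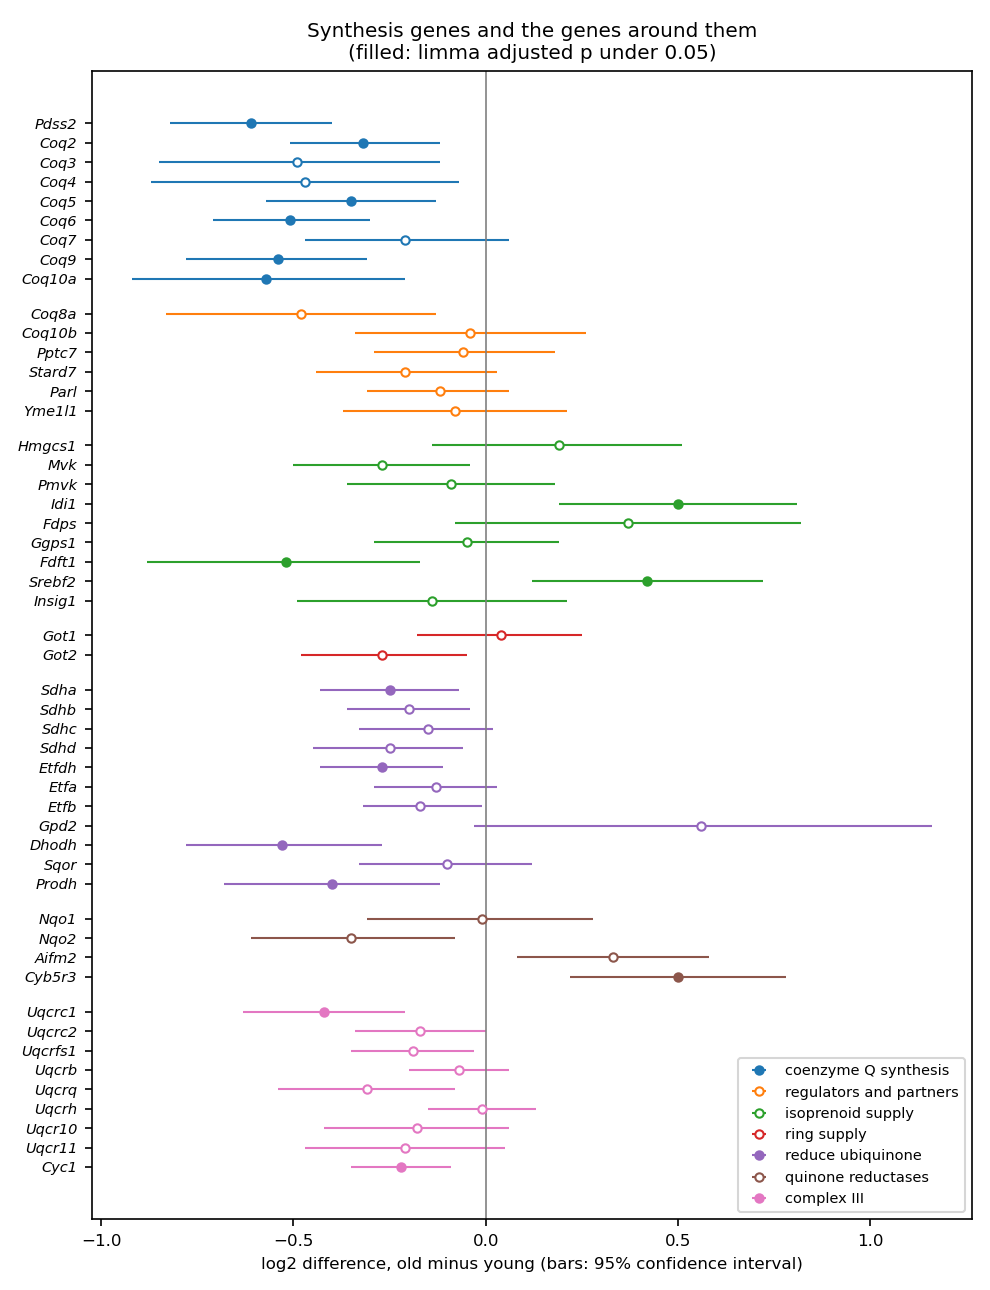
Log2 difference, old minus young, with its 95% confidence interval for the 9 synthesis genes (top) and the 41 tested genes around them, by list; filled points passed an adjusted p under 0.05. The synthesis genes lie between −0.61 and −0.21, while the isoprenoid list has filled points on both sides of 0.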

How the data were processed

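Per the submitters' processing notes the authors summarised each probe set with GCRMA, a method that corrects background by probe sequence and normalizes between arrays. Neither its version nor the log base is stated; the log2 scale of the deposited values was read from their range, 0.98 to 16.01. GCRMA holds undetected transcripts near a common low value. Array medians ran from 3.07 to 3.2.

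Of 45101 probe sets, 34945 had 1 gene in the platform annotation, 932 had several, 9160 were unnamed here and 64 were controls. Symbols were updated by gene identifier to GRCm38.p6 (34741 matched). A probe set passed with a log2 value above 4 in at least 10 of 20 arrays, and each gene took the brightest probe set that passed. Old and young were compared with limma 3.58.1 (R 4.3.3; lmFit and eBayes) over all 9275 genes, with Benjamini-Hochberg adjustment and an adjusted p under 0.05. Every adjusted p in the text is from limma.

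Groups came from the sample titles and ages from the protocols; these give 10 mice per age, and no replicate number is shared by the groups. Array sets were found by hierarchical clustering (average linkage) on correlations of the deviations; dividing the tree into 5 gave the best silhouette, 0.351 (cluster package 2.1.8.1). The members, the lists around them, the atrial index and the limit of 10 for Myl7 were chosen with earlier results of these data known. Named are all members, genes of the lists that passed, Coq8a, Coq8b and Coq10b, and the 5 genes most like the members; Gpd2 was chosen after its values were seen. Other settings were quantile normalization, centring, other filters, the mean of probe sets, single arrays left out, covariates and an intensity trend; centring on passing probe sets was chosen after seeing the data. The limma step was tested on simulated data.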

Additional observations from a re-analysis of the deposited data

Results flagged for a closer look

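Gpd2, the mitochondrial glycerol 3-phosphate dehydrogenase that reduces ubiquinone, was 9.83 in old replicate 8, far above the next old array at 7.1, and that array is also the one with the lowest coenzyme Q synthesis genes. The gap was 0.809 of the range of the old group, beyond the critical value of 0.466 for 10 samples; this was 1 of 44 groups of values examined, and chance marks about 1 in 20. Gpd2 averaged 7.07 ± 0.99 in old arrays, against 6.51 ± 0.09 in young arrays (SD, n = 10 each; 0.56, limma adjusted p = 0.181), with 8 old arrays above all young ones. Without old replicate 8 it was at 0.26 and passed (limma adjusted p = 0.0363), the only 1 of the 20 fits with an array left out in which it did. Without the 7 old arrays rich in Myl7, replicate 8 among them, Gpd2 was at 0.17 (limma adjusted p = 0.398). With the atrial index it was at 0.35 (limma adjusted p = 0.664).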

How the results depend on the processing

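No paired analysis was possible because no replicate number is shared between old and young. Among the 9 synthesis genes, 6 to 8 were lower and 0 higher (0 also at an unadjusted p under 0.05) in limma under every setting but those that handle the atrial transcripts. In those, 0 (7 old arrays left out), 2 (atrial index) and 1 (index and array sets) were lower. Of all genes, 0.679%, 0.927% and 1.89% were lower in these 3 settings, and 5.64% to 16.7% in the others. Of the 9 synthesis genes, Coq3 (0.03) and Coq7 (0.09) changed direction without the 7 arrays. The median of the synthesis genes ran from −0.56 to −0.30, and with single arrays left out from −0.53 to −0.39, with 6 to 8 lower. Around the pathway, where 7 of 41 were lower and 3 higher, the number lower was 13 after quantile normalization, 4 after median centring, 15 after centring on passing probe sets, 12 without the filter, 11 with an intensity trend, 17 with the set block, 1 without the 7 arrays, 0 with the index (6 at an unadjusted p under 0.05) and 0 with index and sets (9 at an unadjusted p). The number higher was 1 with the filter at 6, 0 without the 7 arrays (2 at an unadjusted p), 0 with the index (1 at an unadjusted p) and 1 with index and sets. With single arrays left out these counts were 4 to 10 and 2 to 4, and the lowest, 4, came without old replicate 4 or old replicate 8; the median ran from −0.19 to −0.13. Of the 41, 12 changed sign without the 7 arrays, 5 with the index and 4 with index and sets, and at most 3 under any other of these settings (single arrays left out not counted). Among them Fdft1 (0.02) and Coq10b (0.40) changed without the 7 arrays, and Coq10b also with the index (0.24), with index and sets (0.16) and with 1 array left out (−0.09 to 0.02). The causes were not tested. Over all genes, 1732 were called, against 4345 without the filter, 3344 with the set block, 272 without the 7 arrays, 347 with the index and 579 with index and sets. Only 3 old arrays remain without the 7.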
